A study of Mus musculus with 2 samples.

Results

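Serum proteins such as albumin, the fibrinogen chains and the main apolipoproteins are made mostly by hepatocytes, and their genes are among the most strongly transcribed in the liver. The binding of CTCF, a zinc finger protein that marks the feet of chromatin loops and can insulate neighbouring genes, was examined around 10 of these genes in a tissue outside the liver, the hindbrain of newborn mice. The genes were Alb, Afp, Apoa1, Apob, Apoc3, Fga, Fgb, Fgg, Hp and Ahsg, chosen by name out of 21938 protein-coding genes of the GENCODE vM21 annotation on the assembled chromosomes, and each of the 10 symbols matched a single gene. CTCF ChIP-seq, in which DNA bound by the protein is recovered with an antibody and sequenced, was available from 1 group of 2 libraries. They were made from pulverised hindbrains of strain B6NCrl pups at postnatal day 0, pooled over several dissections, and carry no treatment or genetic change in their labels. Both libraries are labelled as biological replicates but name the same pooled tissue, so differences between them may be technical only.

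CTCF binds DNA through a row of zinc fingers that read an asymmetric core sequence, and the strand of that core sets which way the protein faces. Pairs of sites that face each other are known to anchor chromatin loops by stopping cohesin, the ring complex that extrudes them. Many CTCF sites are shared between tissues, whereas serum protein genes are switched on by liver-enriched transcription factors. Gene expression was not measured here, and the cell makeup of the tissue cannot be read from peaks.

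Genes that lie close together were taken as 1 locus: Alb with Afp, Apoa1 with Apoc3, and Fgg, Fga and Fgb. This gave 6 loci, each running from 50 kb before its first gene to 50 kb after its last. Peaks were counted where the summit, the position of highest signal, fell inside a locus. The optimal set, the peaks the authors kept after comparing peak ranks between lists by the irreproducible discovery rate (IDR), held 62686 peaks, of which 62677 lay on the assembled chromosomes. Read depth is unknown, because peak lists carry no counts of reads. The signal of a peak is the authors' own value, its scale is not stated, and it only describes peaks within a list. Coordinates are on mm10.

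The 6 loci together held 31 optimal peaks in 0.749 Mb. Of these, 4 lay inside the serum protein genes themselves, 1 in Afp, 1 in Apoa1 and 2 in Apob. The other 27 lay between or inside neighbouring genes. The 10 genes, of 1887 to 39188 bp, fill only part of the loci, so this count alone does not show that peaks are scarce in them. These 4 sites hold a match to the CTCF core and are shown because they are the optimal peaks inside the 10 genes. Each line gives 30 bases of the reference genome, read 5′ to 3′ along the strand of the core, with the 14 bases that best match the core consensus in capitals.
Afp, intron 7, chr5:90500918-90500947, minus strand: cactctgcCCGCCAGAGGGCACtctagaag
Apoa1, exon 4 (coding), chr9:46230016-46230045, plus strand: ctctaccgCCAGAAGGTGGCGCctctgggc
Apob, near the start, chr12:7978724-7978753, minus strand: ccatatggCCACCAGATGGAGAtgctgccc
Apob, intron 13 or 14 by transcript, chr12:7990995-7991024, plus strand: gtctgtctCCACTAGGGGTCATctgaaaca
The Afp and Apoa1 matches have 1 mismatch to the consensus and the Apob matches have 2. The core of Apoa1 and the downstream core of Apob run in the direction of transcription, and the other 2 run against it.

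Alb encodes albumin, the main carrier and osmotic protein of plasma, and Afp encodes alpha-fetoprotein, its fetal counterpart. The locus of both genes (chr5:90410897-90558907) held a single optimal peak, at chr5:90500809-90501039 in intron 7 of Afp. Its signal was 297.0 in the optimal set, above that of 87.7% of all optimal peaks. In replicate 1 it had a signal of 179.1 and rank 6783, and in replicate 2 a signal of 119.9 and rank 8680. It lay 599 bp from the annotated start of a short Afp transcript and 10195 bp from the 5′ end of the gene. No peak lay in Alb, whose 5′ end was 40035 bp from the Afp summit. That was the longest distance among the 10 genes, and 83.2% of all coding genes had a nearer peak.

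Ahsg encodes fetuin-A, a calcium-binding inhibitor of calcification, and its locus (chr16:22841277-22949449) also held 1 optimal peak. It lay at chr16:22876746-22876959 in an intron of Dnajb11, a chaperone gene of the endoplasmic reticulum, 14431 bp before the 5′ end of Ahsg. The signal was 220.7, with 135.1 and rank 12330 in replicate 1 and 83.7 and rank 14747 in replicate 2. Alb, Afp and Ahsg each had 1 peak within the gene and 50 kb around it. Of all coding genes, 18.1% had 1 or none, and 87.7% had at least 1, as did all 10 serum protein genes. The median was 6 peaks for all coding genes and 7 for the 10.

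Hp encodes haptoglobin, which binds free haemoglobin, and lies between densely packed genes. Its locus (chr8:109525128-109629172) held 8 peaks, a number that 35.6% of coding genes reached or exceeded. None lay in Hp, and the closest was 14372 bp from its 5′ end. The nearest peaks on either side lay in Dhx38, a splicing helicase gene, and Dhodh, a gene of pyrimidine synthesis. The Dhx38 peak (chr8:109551785-109551943) had a signal of 163.7, with ranks of 17724 and 18131 in replicates 1 and 2, and lay at an internal start site of that gene. Dhodh held 4 peaks, each within 1 kb of one of its 9 annotated start sites. Along the chromosome their signals were 135.6, 299.8, 28.3 and 121.6. The largest signal in the locus, 338.7, was that of a peak in an intron of Pmfbp1 (chr8:109536780-109537021), and a second intron peak of Pmfbp1 had 137.7. The last peak, at the start of Pkd1l3, had a signal of 28.9 and stood apart between libraries, at rank 44312 in replicate 1 and 161072 in replicate 2.

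The Apoa1 locus (chr9:46178580-46285636) holds 4 apolipoprotein genes in a row. Apoa1 encodes the main protein of high-density lipoprotein, and Apoc3 an inhibitor of lipoprotein lipase. Apoa4 and Apoa5 follow. The locus held 9 peaks. The strongest, at chr9:46229901-46230231, lay in the coding part of the last exon of Apoa1 with a signal of 321.9. It had a signal of 183.2 and rank 6312 in replicate 1, and 138.1 and rank 6160 in replicate 2. The next, at chr9:46246864-46247091, had a signal of 299.1 and lay between Apoa4 and Apoa5, 16.9 kb further on. Apoc3 and Apoa4 sit between these 2 sites, and none of the 4 apolipoprotein genes had an optimal peak at most 1 kb from a start site. The best core match of the second site had 3 mismatches and pointed back towards Apoa1. They were followed in signal by a peak at the start of Bud13, a splicing factor gene (256.4), and an intron peak of the kinase gene Sik3 (172.5). The remaining 5 peaks ran from 45.2 to 124.1, with 4 of them in Sik3 and 1 at the start of Zpr1 (87.5).

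Apob encodes the scaffold protein of low-density lipoprotein and is the longest of the 10 genes at 39188 bp. It was also the only one with 2 peaks inside. The stronger (chr12:7978571-7978865) had a signal of 413.6, above 97.0% of optimal peaks, with signals of 235.0 and 182.2 and ranks of 1806 and 1791 in replicates 1 and 2. Its summit lay 1070 bp downstream of the 5′ end of the gene and 939 bp from a second annotated start, in intron 1 or 2, depending on the transcript. The other (chr12:7990892-7991102) had a signal of 220.8, with 132.9 and rank 12624 in replicate 1 and 86.1 and rank 14310 in replicate 2. A further peak past the end of Apob, in an intron of the antisense gene Gm33037, had a signal of 370.7 and ranks of 4130 and 2906. Its core matched the consensus without a mismatch, as did 1 other in the 6 loci, the strong Pmfbp1 site beside Hp. They are shown as the closest matches found. Of all optimal peaks, 8.70% held a perfect match.
Beyond Apob, chr12:8059758-8059787, plus strand: agagattgCCACCAGAGGGCAGcagggcac
Pmfbp1, beside Hp, chr8:109536896-109536925, minus strand: tccagtgaCCAGCAGAGGGCGCccctgctc

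Fga, Fgb and Fgg encode the 3 chains of fibrinogen, the precursor of the fibrin clot. The locus (chr3:82957724-83099863) held 9 peaks, and none lay within any of the 3 genes. The peaks fell on both sides. Before Fgg, 3 peaks in the noncoding gene Gm30097 had nearly equal signals of 241.5, 240.1 and 229.8, the last of them 5312 bp from the 5′ end of Fgg. Their ranks were 12125, 11651 and 13232 in replicate 1 and 11279, 11570 and 11449 in replicate 2. On the far side, a peak of signal 201.3 (ranks 15801 and 13174) lay 4053 bp upstream of Fgb, which is read towards the cluster. The largest signal of all 31 peaks, 438.1, lay 31116 bp from the 5′ end of Fgb at chr3:83080833-83081106, with signals of 247.5 and 192.0 and ranks of 1232 and 1227. The other 4 ran from 12.2 to 82.9, among them a peak of 82.9 at the start of the splicing gene Plrg1. The weakest had its summit 203 bp from that of a neighbour, and in replicate 2 the closest overlapping peak was the one matched to that neighbour.

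**Figure D1:**
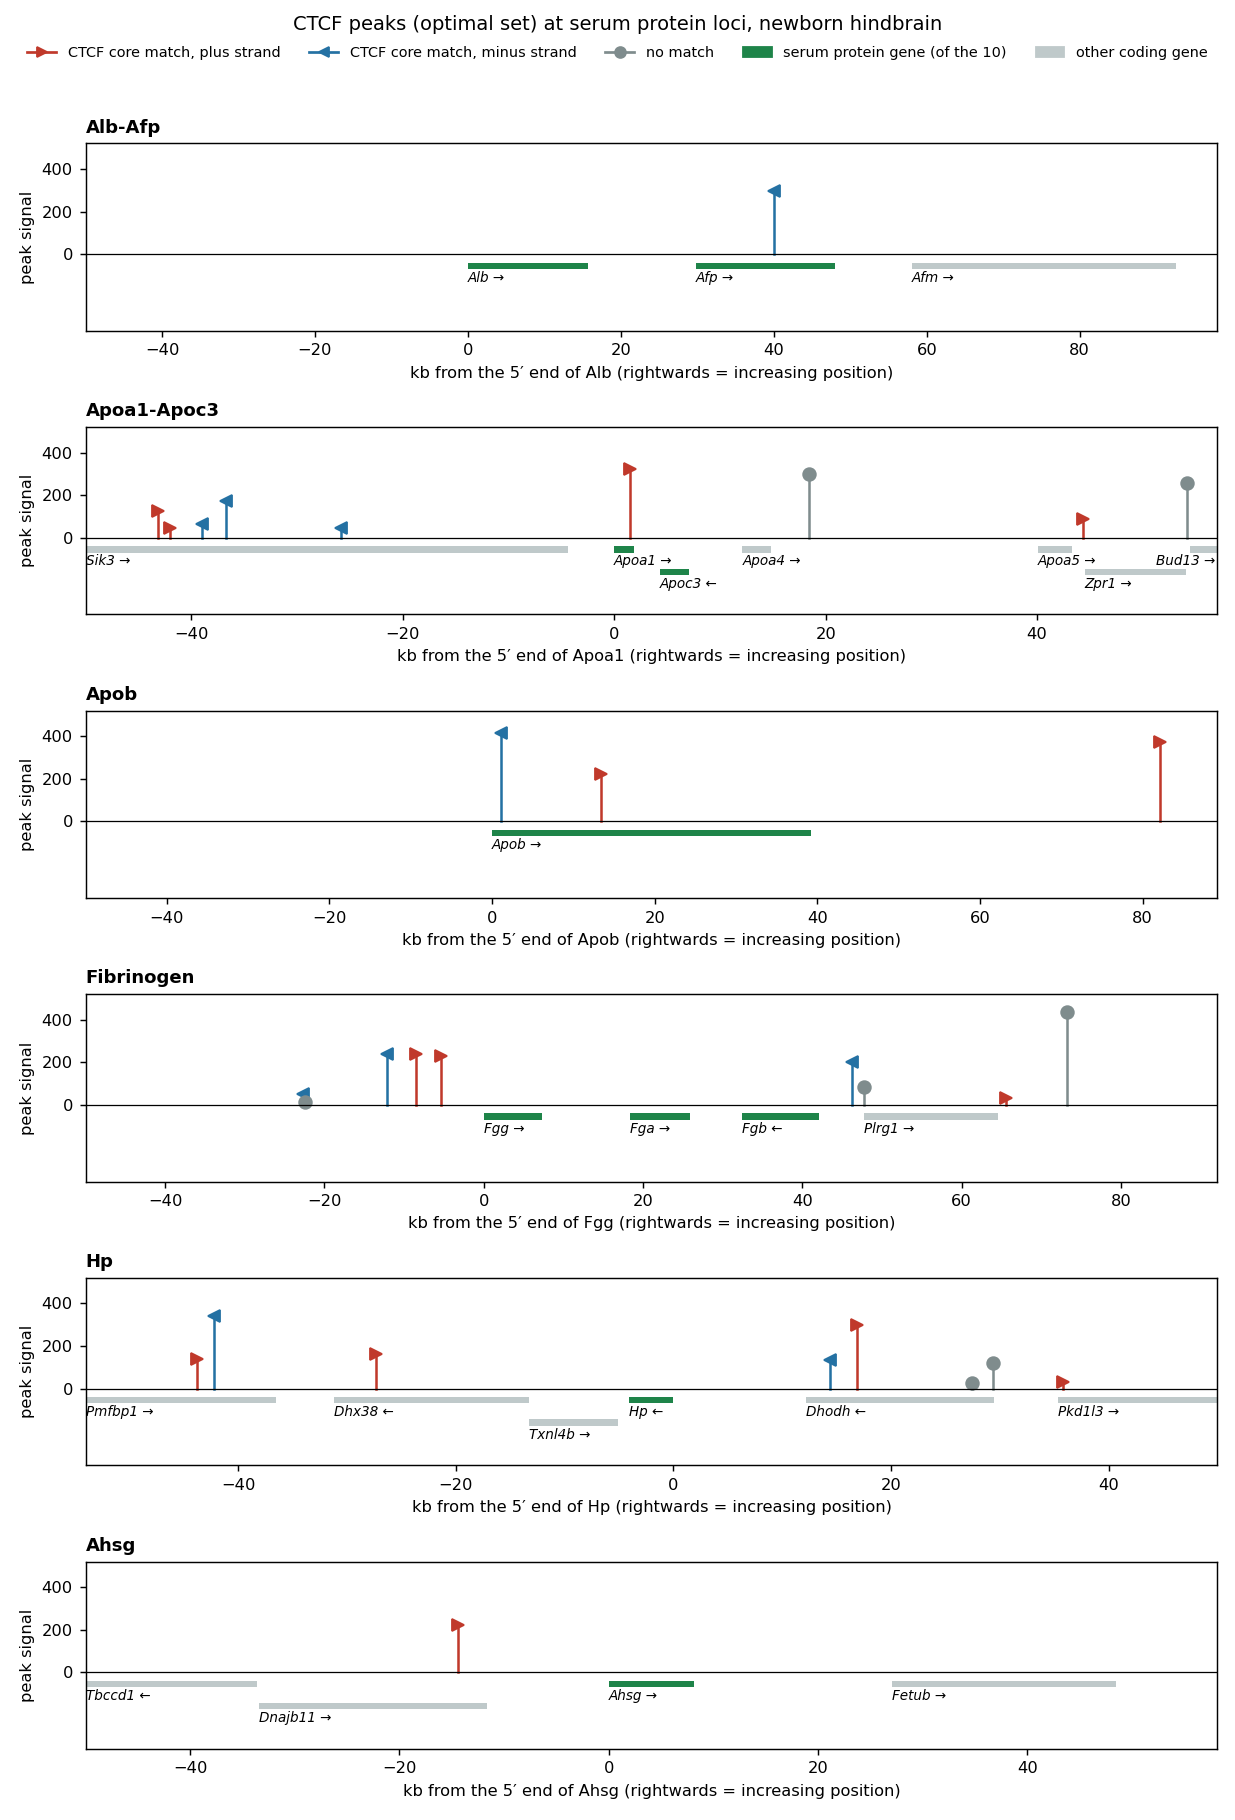
Optimal CTCF peaks in the 6 loci. The horizontal axis gives the distance in kb from the 5′ end of the named gene, the height gives the peak signal in the optimal set (no stated unit), arrowheads point along the strand of the core match, grey circles mark peaks without a match, and boxes are coding genes (green for the 10 serum protein genes). Of the 31 stems, 4 stand over a green box, and the Alb-Afp and Ahsg loci have 1 each.

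The starts of the serum protein genes were largely without CTCF peaks. With a promoter taken as 1 kb to each side of any annotated start site, 2 of the 10 genes, Afp and Apob, had an optimal summit there, against 39.8% of all coding genes. Neither summit was within 1 kb of the gene's own 5′ end, where the count was 0 of 10, against 31.8% of coding genes. That 0 depends on the limit, since the Apob summit lay 1070 bp from the 5′ end. Promoters differ in CpG content, and all 10 had a low observed-to-expected CpG ratio in the 500 bp to each side of the 5′ end, from 0.130 (Apoc3) to 0.393 (Afp), where the median of all coding genes was 0.552. Among the 11855 coding genes with a ratio up to 0.6, 24.2% had an optimal promoter summit. The exact 95% interval of the share of 20% in the 10 genes, 2.52 to 55.6, includes both 39.8% and 24.2%, and genes of a cluster are neighbours and not independent. For the count at the 5′ end, neither an interval nor the share of genes with a low CpG ratio is given here.

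The longer lists also hold weaker candidates. Each library has a list of 300000 candidate peaks, and the reads of both together gave a list of 251251. Alb, Apoc3, Fga, Fgb, Hp and Ahsg had no candidate summit within 1 kb of any start site in any of these 3 lists. The same held for 24.3% of all coding genes and 42.9% of those with a CpG ratio up to 0.6. In the pooled list 69.0% of coding genes had a candidate there, and 47.1% of those with a low CpG ratio. In replicate 1 the shares were 70.3% and 49.3%, and in replicate 2 they were 69.7% and 49.1%. Of the 10 genes, 3 had a candidate in the pooled list, 3 in replicate 1 and 4 in replicate 2. Fgg had a candidate in replicate 2 only, at rank 218343 with a signal of 3.61. Apoa1 had a weak one in all 3, at rank 76737 in replicate 1 and 64169 in replicate 2, with a pooled signal of 21.2. This Apoa1 candidate, 214 bp from the 5′ end, was kept in the conservative IDR set of 59979 peaks and not in the optimal set.

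The distance from the 5′ end to the nearest optimal summit ran over more than an order of magnitude among the 10 genes. In rising order it was 1070 bp for Apob, 1464 bp for Apoa1, 4053 bp for Fgb, 5312 bp for Fgg and 5592 bp for Apoc3. Then came 10195 bp for Afp, 14372 bp for Hp, 14431 bp for Ahsg, 23664 bp for Fga and 40035 bp for Alb. The 21755 coding genes with an optimal peak on their chromosome had a median of 4910 bp, with quartiles at 515 and 20922 bp, and the 10 genes had a median of 7894 bp. None of the 10 was nearer than the lower quartile, and 2 of them, Fga and Alb, were farther than the upper one.

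**Figure D2:**
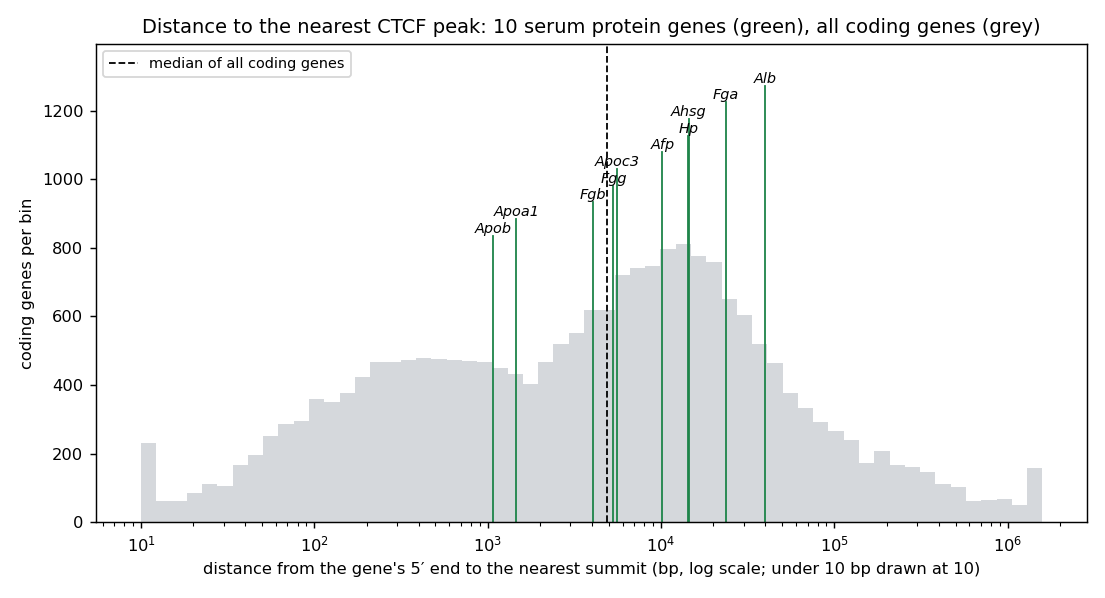
Distance from the 5′ end of each gene to the nearest optimal CTCF summit. Grey bars count the 21755 coding genes with an optimal peak on their chromosome, per bin on a log scale (bp). The 118 beyond 1.58 Mb are drawn in the last bin. Green lines mark the 10 serum protein genes, and the dashed line marks the median of the 21755 coding genes, 4910 bp. The green lines run from 1070 bp (Apob) to 40035 bp (Alb).

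Peaks at starts were also counted for the neighbours. Besides the 10, the loci hold the start sites of 14 other coding genes, and 6 of these had a peak within 1 kb of one, namely Zpr1, Bud13, Plrg1, Dhx38, Dhodh and Pkd1l3. Of all coding genes 39.8% had one, and of those with a CpG ratio over 0.6 it was 58.1%. The other serum protein genes among the 14, namely Afm, Apoa4, Apoa5 and Fetub, had none. The 6 were thus among 10 neighbours of other kinds, 9 of which had a CpG ratio over 0.6. The exception was Pkd1l3, which had a peak and a ratio of 0.520. Whether CpG content bears on these peaks was not tested. Of these 10 neighbours, those without a peak in the loci were Sik3 (by its start site inside the locus), Txnl4b, Tbccd1 and Dnajb11. The shares of all coding genes count every start site of a gene. By that measure Sik3 also had a peak, 224 bp from its 5′ end outside the locus. By position, 12 of the 31 summits lay at most 1 kb from a start of some annotated gene, coding or not (38.7%, against 21.0% of all optimal peaks), 2 in other exons, 13 in introns and 4 in intergenic sequence (12.9%, against 33.8%). Since the loci were drawn around genes, these shares are not like for like with those of the whole genome. Dhodh alone accounted for 4 of the 12. Summits inside the gene were found for 3 of the 10, against 54.0% of all coding genes and 44.6% of the 14243 coding genes of 1887 to 39188 bp, the range of the 10. Apob alone set the upper end of that range, and the next longest was Afp at 18171 bp. The 14243 genes are thus not closely matched in length.

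Of the 31 peaks, 24 (77.4%, exact 95% interval 58.9 to 90.4) had a match to the CTCF core with at most 2 mismatches within 50 bp of the summit, against 65.4% of all optimal peaks. The interval, which covers counting error only, includes that value. The core was on the plus strand in 14 and on the minus strand in 10, and 49.8% of matches in all optimal peaks were on the plus strand. The matches lay close to the summits, at a median of 10 bp and at most 31.5 bp. The median signal was 186.9 with a match and 121.6 without one. The strongest peak of all, beyond the fibrinogen genes, was among the 7 without a match, its best core having 3 mismatches. The median over the 31 was 172.5, against 73.9 for all optimal peaks, and 15 of them were above the upper quartile of the optimal set (191.1).

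Matches on both sides of the genes pointed towards each other in most loci. For each locus the nearest peak with a core outside the genes was taken on each side, also beyond the 50 kb. In 4 of the 6 loci, Alb-Afp, fibrinogen, Hp and Ahsg, the left core was on the plus strand and the right one on the minus strand, so that they faced each other across the genes. Of 21634 coding genes with such a pair, 28.2% were flanked in this way, 47.3% by cores in the same direction and 24.6% by cores facing apart. These shares count single genes, whereas a locus can hold several genes, and cores within or between them were passed over. The units are thus unlike. The flanking cores of 3 loci are shown, because their order of strands gives the direction.
Alb-Afp, left, chr5:90405383-90405412, plus strand: cggagataACACGAGGTGGCAGtcttgtcc
Alb-Afp, right, chr5:90589119-90589148, minus strand: cagaatggCCAATAGAGGGAGGaagagcac
Fibrinogen, left, chr3:83002390-83002419, plus strand: aaagatggCCTGTAGGTGGCGAgagtgagc
Fibrinogen, right, chr3:83053892-83053921, minus strand: ttttctggACAGTAGAGGTCACtatggctc
Ahsg, left, chr16:22876833-22876862, plus strand: caactttgTCCCCAGGTGGCGCtaaaataa
Ahsg, right, chr16:22953271-22953300, minus strand: cctgcatgTCAGAAGAGGGCGCcagatctc
All 6 cores have 2 mismatches. With at most 1 mismatch allowed, all 3 printed pairs dropped out. The cores that took their place pointed the same way around Alb-Afp and around Ahsg, and faced each other around fibrinogen over 274.8 kb in place of 51.5 kb. Hp, whose cores have 1 mismatch each, kept its pair, so that 2 loci were convergent. The share of all coding genes at 1 mismatch is not given here.

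The convergent pairs differed in size and strength. Around fibrinogen they were 51.5 kb apart and of like signal, at 229.8 and 201.3. Around Hp they were 41.7 kb apart, at 163.7 in Dhx38 and 135.6 in Dhodh. Around Ahsg they were 76.4 kb apart, at 220.7 in Dnajb11 and 79.0 in an intron of Hrg, the gene of histidine-rich glycoprotein, so that Ahsg and Fetub lay inside. Around Alb and Afp they were 183.7 kb apart, at 118.6 on the left and 432.8 on the right, the latter beside the start of the noncoding gene Gm42109. All coding genes had a median of 103.3 kb between such cores. The Afp core lies between this pair. For Alb taken alone, the left core and the minus-strand core in Afp formed a convergent pair 95.5 kb apart.

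At the other 2 loci the cores did not face each other. The nearest cores outside Apoa1 and Apoc3 faced apart over 70.2 kb, the left one in an exon of Sik3 (signal 45.2) and the right one at the start of Zpr1 (87.5). With up to 3 mismatches the site between Apoa4 and Apoa5 became the right one, and both cores were then on the minus strand. Those around Apob were both on the plus strand and 189.6 kb apart, with signals of 112.7 and 370.7. Taken gene by gene, 7 of the 10 genes had convergent cores on their sides. The 3 fibrinogen genes share a single pair, and Alb and Afp share their left core, so the 7 are not independent. No contacts between sites were measured, so whether any of these pairs forms a loop was not tested.

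A group of weaker sites shared more than the core. After the sequences had been seen, 4 of the 24 matches in the loci, and the right flanking core of Ahsg printed above, were found to hold AGAGGGCNNCAGA, where N is any base, read along the strand of the core from within the match into the 8 bases after it. They are set side by side because their agreement continues past the core.
Sik3, left of Apoa1, chr9:46186545-46186574, plus strand: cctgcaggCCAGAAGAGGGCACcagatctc
Zpr1 start, chr9:46272884-46272913, plus strand: cagacacaCCAGAAGAGGGCGTcagacccc
Pmfbp1, left of Hp, chr8:109535318-109535347, plus strand: tacggaagCCAGTAGAGGGCATcagatccc
Pkd1l3 start, chr8:109615007-109615036, plus strand: cctgcttgCCAGAAGAGGGCATcagatcga
The match of each of these 5 sites lies wholly in sequence that the reference genome marks as repeat. Repeats of the B2 family of short interspersed elements are known to carry CTCF sites in rodents, but repeat families were not annotated here. Of all 31 summits, 7 (22.6%) lay in marked repeats, against 18.4% of optimal peaks. Over the genome 3397 optimal peaks held this sequence at their core, which is 8.28% of the peaks with a match and 5.42% of all, 92.3% of them in marked repeats, against 14.8% of the other matches. Their median signal was 50.8, against 120.6 for the other peaks with a match. The 4 sites in the loci had signals of 46.3, 87.5, 137.7 and 28.9. The last 2 were also less alike between the libraries, at ranks of 18004 and 26611 for the Pmfbp1 site and 44312 and 161072 for the Pkd1l3 site.

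The peaks of the loci stood at similar ranks in both libraries. All 31 overlapped a candidate of each library, and 29 (93.5%) overlapped one among the 62686 strongest of both, against 83.3% of all optimal peaks. Any overlapping peak counted for this. Some of the peaks with the nearest summit ranked beyond 62686, such as that of the Pkd1l3 site in replicate 2, at rank 161072. A peak of the conservative set overlapped 28 of the 31 (90.3%, against 87.1% of all optimal peaks). The ranks differed by less than 1.5 times in 28 of the 31, with a median ratio of 1.13. The exceptions were the Pkd1l3 site (3.63 times) and 2 fibrinogen peaks of signal 12.2 and 31.9 (2.58 and 1.62 times), all 3 of them below the lower quartile of signal in the optimal set (36.8). The 4 peaks inside Afp, Apoa1 and Apob were not among them. For the peak of signal 12.2, the replicate 2 rank is that of its neighbour's match, with a summit 212 bp away, so its ratio compares different sites. Summits in the libraries lay a median of 3 bp (replicate 1) and 6 bp (replicate 2) from those of the optimal set. Since repeatable ranks were a criterion of the authors' IDR step, this agreement is partly built into the set.

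**Figure D3:**
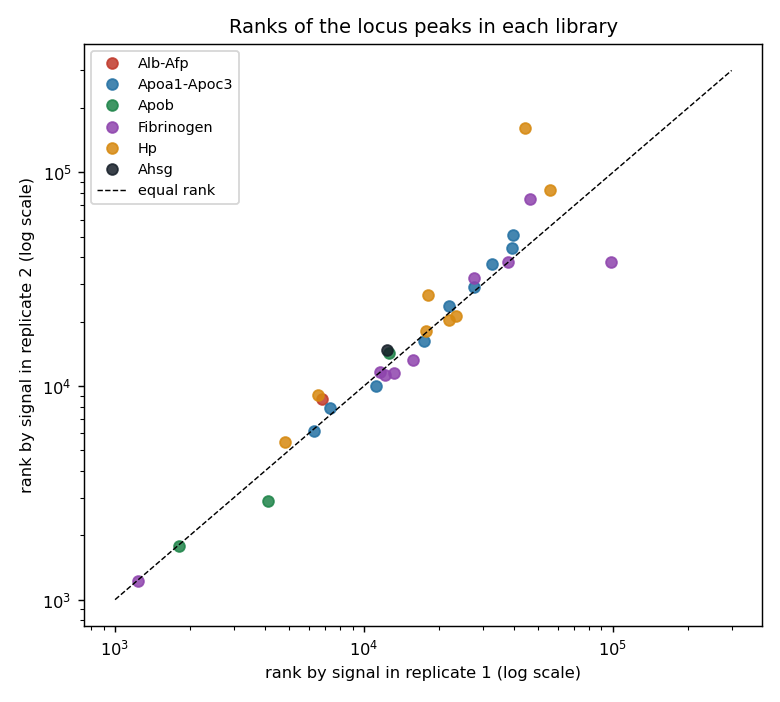
Ranks by signal of the 31 locus peaks in replicate 1 (horizontal) and replicate 2 (vertical), both on log scales, coloured by locus, where rank 1 is the strongest of 300000 candidates. The dashed line marks equal ranks, and 28 of the points lie within 1.5 times of it.

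The edges of the loci left some peaks just inside and some just outside. The closest inside was the Bud13 peak, 2925 bp within the right edge of the Apoa1 locus (signal 256.4). The closest outside were the Hrg peak, 3831 bp past the right edge of the Ahsg locus (79.0), and the left flanking peak of Alb and Afp, 5501 bp before the edge of their locus (118.6). The density in the loci was 41.4 peaks per Mb, against 23.0 over the assembled chromosomes. Around single loci it ran from 0.676 per 100 kb (Alb-Afp) and 0.924 (Ahsg) through 2.16 (Apob) to 6.33 (fibrinogen), 7.69 (Hp) and 8.41 (Apoa1). The median around all coding genes was 4.03 per 100 kb, with 3 loci below it and 3 above.

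Lists of other plasma proteins, most of them made by the liver, were counted in the same way. In 6 lists with 88 genes, among them C5ar1, which encodes a receptor on blood cells and not a plasma protein, 8 (9.09%, exact 95% interval 4.01 to 17.1) had an optimal summit within 1 kb of a start site, against 39.8% of all coding genes and 24.2% of those with a low CpG ratio. The intervals treat genes as independent, although some are neighbours. Of 14 genes for apolipoproteins and lipoprotein enzymes, 2 had one, Apoe (signal 78.5) and Pltp (53.0). Of 16 coagulation and fibrinolysis genes it was 1, F5 (24.8), the gene of a clotting cofactor. Of 18 protease inhibitor genes it was 1, Itih1 (220.7), an inter-alpha-trypsin inhibitor chain. Of 12 carrier genes it was 0 (exact upper limit 26.5%). Of 16 complement genes 3 had one, C3 (255.4), C1s1 (88.2) and C8a (62.8), and of 12 acute phase genes 1, Saa3 (292.7). A low CpG ratio was common to them, since 4 of the 88 exceeded 0.6. Their median distance from the 5′ end to a summit was 10506 bp, against 4910 bp for coding genes in general. Of the 88, 80 (90.9%) had a peak in the gene or within 50 kb, near the 87.7% of all coding genes.

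**Figure D4:**
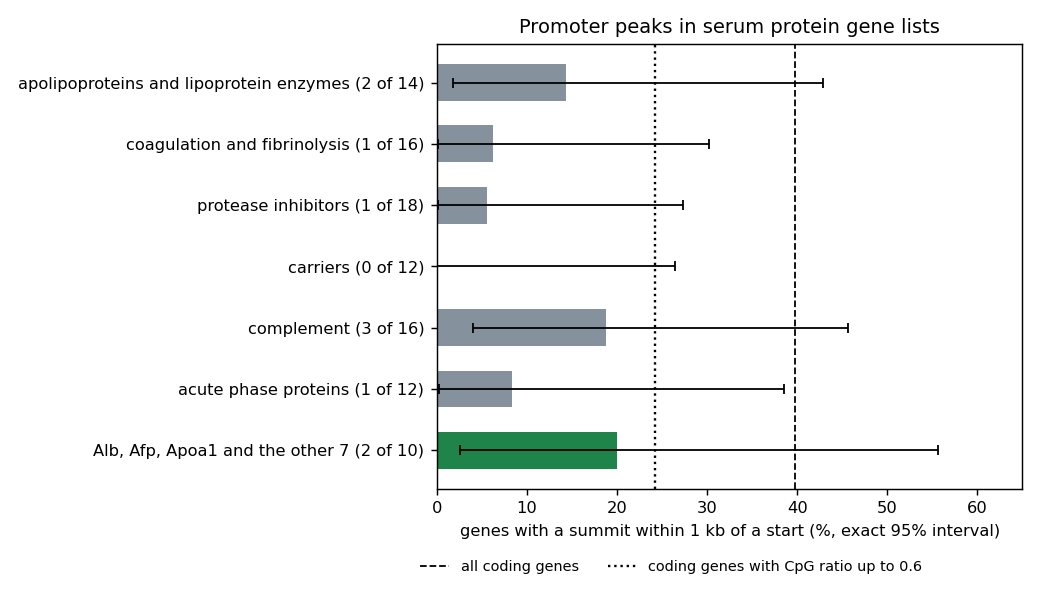
Share of genes with an optimal CTCF summit within 1 kb of any annotated start site (%), for the 6 other serum protein lists (grey) and the 10 genes (green), with exact 95% intervals as error bars. The dashed line marks all coding genes at 39.8% and the dotted line coding genes with a CpG ratio up to 0.6 at 24.2%. Each bar ends below the dotted line, and the intervals of all but the green, complement and lipoprotein bars end below the dashed line.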

How the data were processed

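All deposited files used are peak lists in the narrowPeak layout on mm10. Per the deposited descriptions of the files, each library's list came from its own alignments and a further file, the pooled list from the alignments of both libraries, and both IDR sets from these lists. The aligner, caller and IDR threshold are unstated. The deposited signal is a score on the authors' scale, as is the IDR score, and the deposited q values are on a −log10 scale. Of the optimal set, 9 peaks off the assembled chromosomes were left out.

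Genes came from GENCODE vM21, and sequences from the RefSeq GRCm38 assembly of mm10. The reference is not from strain B6NCrl. The CTCF core consensus (14 bp, known by name, both strands) was searched with Python 3.11.15 and pysam 0.24.0 scripts, tested on simulated data. Library peaks were matched by overlap and nearest summit. With 1 group there is no contrast, so values are descriptive, without p-values, and intervals are exact binomial (Clopper-Pearson).

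The 10 genes were given, and they and the lists were chosen with earlier results of these data known. Named were all 10 genes, all peaks of loci with up to 8, otherwise the 4 strongest and the 2 nearest to a member's start, neighbours with a peak at a start, and up to 3 genes per list. The shared repeat sequence was chosen after the data were seen. Alternatives were the conservative set, the stronger 31343 optimal peaks, each library alone (its top 62686 peaks), and other margins, promoters, mismatches, windows and overlaps.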

Additional observations from a re-analysis of the deposited data

How the results depend on the processing

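The number of peaks in the loci, 31, followed the margin, at 13 with 20 kb and 52 with 100 kb. Leaving out a replicate gave 29 to 30. The 2 genes with a promoter peak fell to 0 with promoters of 500 bp (32.3% of all coding genes) and to 0 with the 5′ end only (31.8%). The count was 2 with either replicate left out (40.4% and 40.8%), 2 in the stronger 31343 peaks (20.2%), 3 with 2.5 kb (49.2%) and 3 in the conservative set (38.5%), which adds Apoa1. Of the 31 peaks, 10 had a core match at 1 mismatch, in place of 24. Without replicate 1 it was 22 of 29 peaks, and without replicate 2 it was 25 of 30. Convergent pairs flanked 2 loci at 1 mismatch, in place of 4, 4 at 3 mismatches, where the cores beside Apoa1 changed from facing apart to the same direction, and 4 with either replicate left out. The 29 peaks found among the strongest of both libraries became 26 with a reciprocal overlap of 50%, 27 with summits within 50 bp and 22 with 31343 peaks per library. The other alternatives moved each count by no more than 1.5 times. No paired analysis was possible because there is 1 group. With 2 libraries of unknown depth, a start without a candidate shows that none was called, not that CTCF is absent.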
